A study of Mus musculus with 6 samples.

Results

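The data describe 8 genes whose products are known to repress or modulate the embryonic and fetal globin genes: Bcl11a, Zbtb7a, Sox6, Myb, Nr2c1, Nr2c2, Chd4 and Mbd2. Every probe set that the platform annotation assigns to 1 of these genes alone was taken, which gave 33 of the 45101 probe sets on the array, and 0 probe sets listed a member together with another gene. RNA was hybridised to 6 Affymetrix mouse arrays. Of these, 3 carried RNA labelled as coming from EKLF knock out (EKLF -/-) fetuses and 3 carried RNA labelled as wild-type. Both groups were labelled C57BL/6, were fetal livers taken at day 13.5, and were sorted by flow cytometry for early erythroid progenitors after staining with 7AAD and antibodies to CD71 and Ter119. The knockout is a germline allele made, per the labels, with targeting constructs from a strain 129 library, so it would be carried in every cell of those fetuses, and the labels name 1 liver per array. Eklf is the older name of Klf1, the erythroid transcription factor that binds CACCC boxes.

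Mammals express embryonic globins in the first red cells and switch to adult globins as blood formation moves to the fetal liver. Bcl11a, Zbtb7a and Sox6 are DNA-binding repressors that keep embryonic or fetal globin genes silent in later red cells. Nr2c1 and Nr2c2 (TR2 and TR4) are orphan nuclear receptors that bind direct repeats in embryonic and fetal beta-like globin promoters. Chd4 is the ATPase of the NuRD corepressor complex, Mbd2 is a methyl-CpG binding protein that brings NuRD to methylated DNA, and Myb is a transcription factor of dividing progenitors whose loss is linked in humans to raised fetal globin. Klf1 is known to activate Bcl11a and Zbtb7a.

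The single comparison of the design sets the knockout-labelled arrays against the wild-type-labelled arrays. Signals are MAS5 values on a linear scale, and each array had a trimmed mean of 500.0. Median signals were 204 to 218 on the knockout-labelled arrays and 97.7 to 140 on the wild-type-labelled arrays, and pairs of arrays correlated at 0.897 to 0.906 within the knockout label, 0.922 to 0.944 within the wild-type label and 0.822 to 0.858 between labels. The probe set of Klf1 gave 3505, 1391 and 2545 on the knockout-labelled arrays and 2508, 2706 and 4030 on the wild-type-labelled arrays. The groups overlapped (log2 difference -0.38 ± 0.32, SE, limma adjusted p = 0.358). The place of these probes relative to the deletion is not given in the sources used here, so the groups are named by their labels. The 3 arrays per group limit the precision of every difference, and nothing beyond 1 liver per array says how far the samples are independent.

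A probe set was tested with limma when its mean log2 signal reached 6.62, a signal of 98.6, and a difference was called at a Benjamini-Hochberg adjusted p under 0.05 over all 27023 probe sets tested. Of all of them 43.8% were called, 28.1% as higher with the knockout label and 15.7% as lower. Of the 33 probe sets of the regulators 29 were tested, and 16 (55.2%) were called, 5 higher and 11 lower. Among these are Bcl11a 1447335_x_at and Sox6 1426018_a_at, each with all values of 1 label under 98.6, which were tested only through the label where they are high and had to differ, so their calls support nothing further. Their median log2 difference was -0.32, against 0.32 over all probe sets tested. The 3 knockout values lay wholly above the 3 wild-type values at 7 of the 29 and wholly below them at 12, 19 in all, where the shares over all probe sets tested were 37.5%, 20.1% and 57.6%. At each gene's main probe set, the 1 with the highest mean log2 signal, Zbtb7a and Sox6 were higher, Myb, Bcl11a, Nr2c2 and Chd4 were lower, and Nr2c1 and Mbd2 did not pass. Over all genes at their main probe sets 26.1% were higher and 19.7% were lower. The arrays of the labels did not overlap at the main probe sets of 6 of the 8 regulators, 2 above and 4 below the wild-type values, where 59.3% of all genes did not overlap, 34.1% above and 25.2% below.

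**Figure D1:**
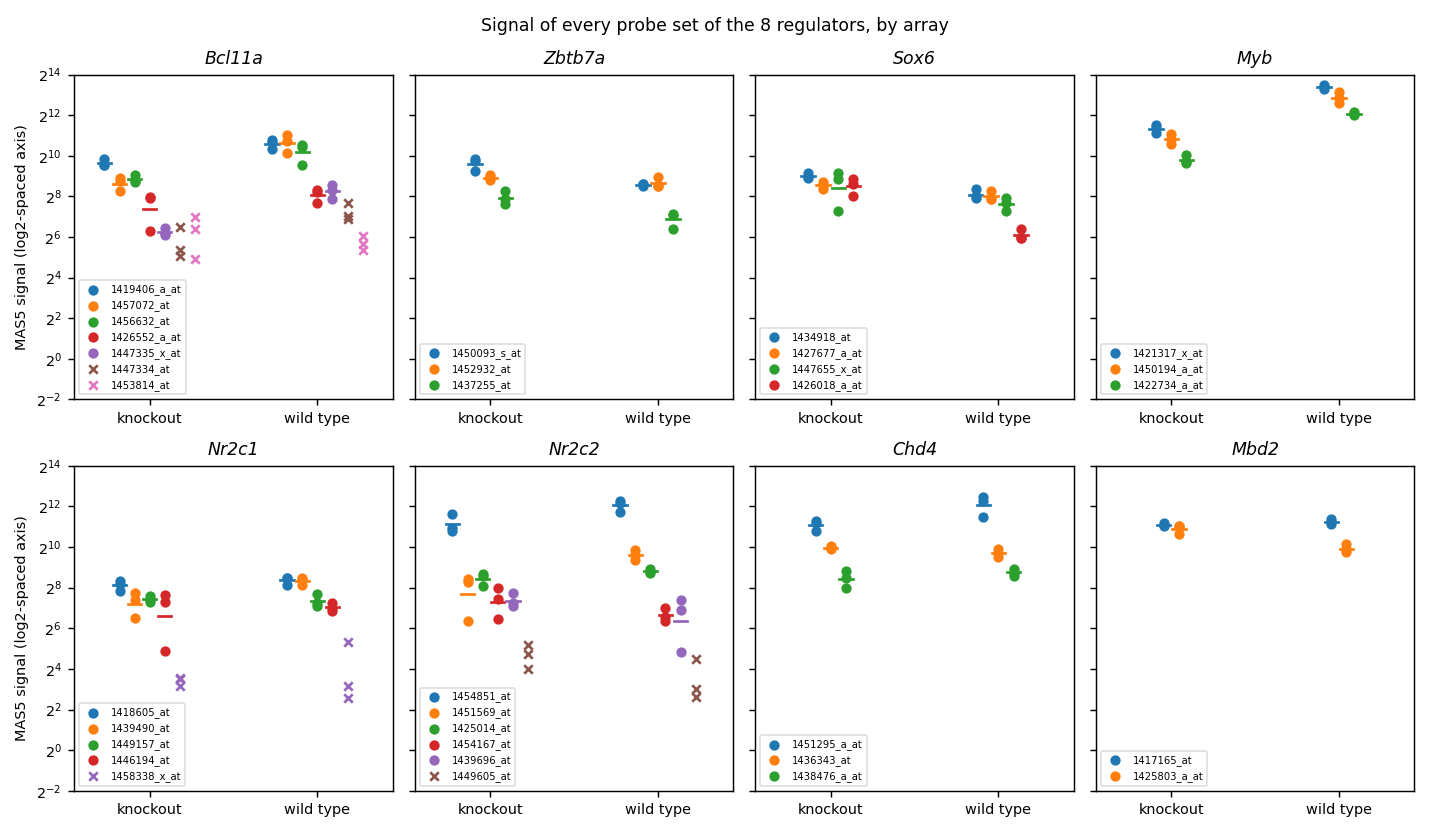
MAS5 signal (log2-spaced vertical axis) of all 33 probe sets of the 8 regulators, with a panel per gene, knockout-labelled arrays on the left and wild-type-labelled arrays on the right. Points are single arrays, short lines are geometric means of the 3 arrays, and crosses mark the 4 probe sets under the intensity filter. At all 3 Myb probe sets the knockout points lie below the wild-type points, and the Nr2c2 and Chd4 probe sets do not move alike.

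Bcl11a, the zinc finger repressor of embryonic and fetal globin genes, was lower on the knockout-labelled arrays at 3 of the 4 probe sets whose mean was above 98.6 in both labels. Its main probe set 1419406_a_at had signals of 905, 747 and 739 on the knockout-labelled arrays, against 1747, 1292 and 1634 on the wild-type-labelled arrays. The groups did not overlap, and the log2 difference was -0.96 ± 0.19 (SE, limma adjusted p = 0.00408). The probe set 1457072_at gave 427, 481 and 302 on the knockout-labelled arrays and 2091, 1674 and 1113 on the wild-type-labelled arrays, 3.97-fold lower with the knockout label (-1.99 ± 0.28, SE, limma adjusted p = 0.000754). Wild-type-labelled array 3 was the lowest of its label here, and every knockout value still lay below it. At 1456632_at the signals were 423, 527 and 433 on the knockout-labelled arrays and 1396, 1472 and 755 on the wild-type-labelled arrays, 2.52-fold lower with the knockout label (-1.34 ± 0.27, SE, limma adjusted p = 0.00517).

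The dimmer Bcl11a probe sets were less even. At 1447335_x_at, whose suffix marks probes that can bind other sequences, the knockout mean was 76.9 ± 9.48 and the wild-type mean 309 ± 69.7 (SD, n = 3 each), so that it passed the filter through the wild-type-labelled arrays alone and its values are a description. At 1426552_a_at the signals were 252, 240 and 77.3 on the knockout-labelled arrays and 206, 300 and 321 on the wild-type-labelled arrays. These groups overlapped and the difference did not pass (-0.70, 95% interval -1.76 to 0.37, limma adjusted p = 0.25). Of the 2 probe sets under the filter, 1447334_at had means of 54.1 with the knockout label and 151 with the wild-type label, while 1453814_at had means of 80.7 on the knockout-labelled and 52.7 on the wild-type-labelled arrays. The 95% intervals of the difference were -1.38 to -0.54 at 1419406_a_at and -2.61 to -1.37 at 1457072_at, and whether the probe sets differ in how far they fell was not tested.

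The promoter of Bcl11a is shown because Klf1 binds CACCC-type sequence. This window is dense in CCNCNCCC, a looser pattern whose matches need not hold CACCC. In the 300 bases from 250 before to 50 after the start (RefSeq, GRCm38.p6, chr11:24080445-24080744, plus strand), capitals mark matches to CCNCNCCC on either strand, letters that also take in the GC box of Sp factors. There were 8 matches, 4 of which overlapped the match before them.
Bcl11a: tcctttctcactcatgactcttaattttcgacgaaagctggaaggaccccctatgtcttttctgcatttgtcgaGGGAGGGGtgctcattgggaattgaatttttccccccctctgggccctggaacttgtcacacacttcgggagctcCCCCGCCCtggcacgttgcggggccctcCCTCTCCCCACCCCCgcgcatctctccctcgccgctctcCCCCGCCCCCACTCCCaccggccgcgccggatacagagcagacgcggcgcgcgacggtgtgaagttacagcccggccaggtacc
Of 32851 mouse promoter windows of this length 49.47% held at least 1 match and 2.399% held at least 8. A match is a description of letters and was not tied to binding in these data.

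Myb, the progenitor transcription factor, had the largest decrease of the 8 main probe sets and moved alike at its 3 probe sets. The main probe set 1421317_x_at gave 2882, 2762 and 2193 on the knockout-labelled arrays, against 10655, 11629 and 9897 on the wild-type-labelled arrays. That is 4.13-fold lower with the knockout label (log2 difference -2.04 ± 0.16, SE, limma adjusted p = 4.45e-05). At 1450194_a_at the signals were 2133, 1816 and 1547 on the knockout-labelled arrays and 8965, 6253 and 7252 on the wild-type-labelled arrays, 4.08-fold lower. At 1422734_a_at they were 1036, 809 and 818 on the knockout-labelled arrays and 4230, 4093 and 4499 on the wild-type-labelled arrays, 4.84-fold lower (limma adjusted p = 2.86e-05). At all 3 the highest knockout value stayed below the lowest wild-type value, and the 3 differences lay between -2.28 and -2.03.

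In RNA from a sorted mixture, fewer cells that express a gene and less RNA of it per cell cannot be told apart. Markers of other cells moved with the labels in which Bcl11a and Myb fell, and Bcl11a is also known in B lymphoid cells and Myb in immature progenitors of several lineages. Of 9 B lymphoid markers tested 8 were lower and 0 higher, and Pax5 did not pass (-0.25, limma adjusted p = 0.611). Their summed signal was 939 to 1395 on the knockout-labelled arrays and 23312 to 34563 on the wild-type-labelled arrays. Among the lower ones, Vpreb1 averaged 52.2 with the knockout label and 8588 with the wild-type label. Cd79a averaged 89.6 with the knockout label and 3390 with the wild-type label. Of 12 immature progenitor markers 9 were lower and 1 (Hoxa9) higher, with sums of 8571 to 9310 on the knockout-labelled arrays and 20692 to 22711 on the wild-type-labelled arrays. All 8 early erythroid markers tested were higher, with sums of 88877 to 135000 on the knockout-labelled arrays and 27075 to 31781 on the wild-type-labelled arrays. All 8 hepatocyte markers (sums 92961 to 159470 on the knockout-labelled and 7578 to 8171 on the wild-type-labelled arrays) and all 6 megakaryocyte markers were higher too. Of 8 granulocyte markers 5 were lower, and of 6 macrophage markers 3 (Vcam1, Mrc1 and Adgre1) were higher and 1 (Csf1r) lower. At their main probe sets 26.1% of all genes were higher and 19.7% lower. No B lymphoid, progenitor or hepatocyte marker was under a signal of 98.6 on all 6 arrays. However, Rag1 was under it on every knockout-labelled array and the hepatocyte marker Fgb on every wild-type-labelled array. The knockout means of Vpreb1 and Cd79a were under it too. Each of these genes was tested only through the other label and had to differ, so these calls support nothing further. The part of these cells in the differences of the regulators was not tested.

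Zbtb7a, the zinc finger repressor also called LRF, was higher with the knockout label at 2 of 3 probe sets. The main probe set 1450093_s_at gave 921, 614 and 852 on the knockout-labelled arrays, against 365, 389 and 385 on the wild-type-labelled arrays. The groups did not overlap, and the signal was 2.07-fold higher (log2 difference 1.05 ± 0.22, SE, limma adjusted p = 0.00581). The suffix of this probe set marks probes that can match transcripts of more than 1 gene, although the annotation lists Zbtb7a alone. At 1437255_at the signals were 303, 233 and 199 on the knockout-labelled arrays and 83.9, 136 and 139 on the wild-type-labelled arrays (1.05 ± 0.35, SE, limma adjusted p = 0.0384). This call was lost after quantile normalization (adjusted p = 0.596), cyclic loess (0.63) and median centring (0.647), and in 5 of 6 fits without 1 array. At 1452932_at the signals were 522, 441 and 490 on the knockout-labelled and 359, 369 and 497 on the wild-type-labelled arrays, which overlapped (0.26, 95% interval -0.25 to 0.77, limma adjusted p = 0.368). Its sign turned after quantile normalization (-0.030).

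The promoter of Zbtb7a is given for comparison with that of Bcl11a, since both genes are known targets of Klf1 and their signals moved in opposite directions here. The window (RefSeq, GRCm38.p6, chr10:81136021-81136320, plus strand) held 8 matches to CCNCNCCC, marked in capitals, 1 of which overlapped the match before it.
Zbtb7a: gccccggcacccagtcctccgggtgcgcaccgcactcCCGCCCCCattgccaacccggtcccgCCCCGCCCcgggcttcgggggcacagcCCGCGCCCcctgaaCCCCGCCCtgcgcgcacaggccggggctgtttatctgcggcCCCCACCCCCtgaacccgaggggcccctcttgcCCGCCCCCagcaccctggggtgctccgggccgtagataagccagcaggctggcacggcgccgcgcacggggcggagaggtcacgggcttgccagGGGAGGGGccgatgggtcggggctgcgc
The window of Myb, whose signal fell, held 4 matches (GRCm38.p6, chr10:21160935-21161234, minus strand), a number reached by 12.49% of all windows.
Myb: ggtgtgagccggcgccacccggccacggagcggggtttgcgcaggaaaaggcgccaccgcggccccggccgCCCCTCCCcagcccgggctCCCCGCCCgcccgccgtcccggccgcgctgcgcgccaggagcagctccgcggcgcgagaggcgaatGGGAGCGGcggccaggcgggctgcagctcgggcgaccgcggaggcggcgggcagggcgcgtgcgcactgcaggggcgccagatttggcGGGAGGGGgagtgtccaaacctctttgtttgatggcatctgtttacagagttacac
Of the other members, both windows of Chd4 held 6 matches, Nr2c2 held 2, Nr2c1 held 0, and the 6 windows of Sox6 held 0 to 2. In all, 7 of the 8 members had a window in the RefSeq table used.

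Sox6, the SoxD factor known to repress the mouse embryonic beta-like globin Hbb-y, was higher at 1 of the 3 probe sets whose mean was above 98.6 in both labels, and that call was lost under each other scaling tried. The main probe set 1434918_at gave 563, 479 and 499 on the knockout-labelled arrays and 239, 326 and 261 on the wild-type-labelled arrays (log2 difference 0.91 ± 0.23, SE, limma adjusted p = 0.0135). At 1426018_a_at the signals were 255, 392 and 470 on the knockout-labelled arrays and 61.2, 84.7 and 61.2 on the wild-type-labelled arrays. Its wild-type values were all under 98.6, so it was tested only through the knockout-labelled arrays and its values are a description. At 1427677_a_at the signals of 412, 329 and 381 on the knockout-labelled arrays lay above those of 231, 309 and 235 on the wild-type-labelled arrays without passing (0.54, limma adjusted p = 0.109). At 1447655_x_at the knockout-labelled arrays gave 466, 154 and 565 and the wild-type-labelled arrays 206, 241 and 155, with knockout-labelled array 2 at the low end of all 6 (0.80, limma adjusted p = 0.193). Without that array this probe set passed (1.38, adjusted p = 0.0159).

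The rise of Sox6 and Zbtb7a depended on how the arrays were scaled. The median difference over all probe sets tested was 0.32 as deposited, 0.0086 with quantile normalization, 0.031 with cyclic loess and -0.49 with median centring. The main probe set of Sox6 gave 0.52 after quantile normalization (adjusted p = 0.105), 0.55 after cyclic loess (0.0986) and 0.094 after median centring (0.803), and it passed under none of these 3. The main probe set of Zbtb7a gave 0.87 and 0.89 and passed after quantile normalization and cyclic loess, and gave 0.23 after median centring (adjusted p = 0.531). The main probe sets of Bcl11a and Myb stayed below 0 and called under all 3, Bcl11a at -0.88, -0.83 and -1.78 and Myb at -1.93, -1.82 and -2.86.

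**Figure D2:**
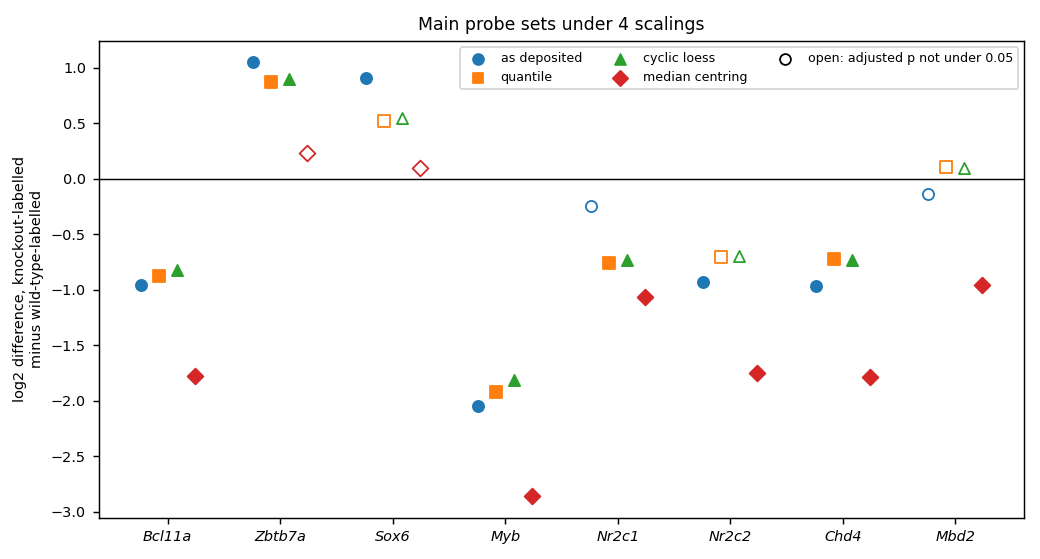
Log2 difference, knockout-labelled minus wild-type-labelled, at the main probe set of each regulator as deposited and under quantile normalization, cyclic loess and median centring. Filled symbols passed an adjusted p under 0.05 and open symbols did not. Bcl11a, Myb and Chd4 are below 0 and filled at each of the 4 scalings, while Sox6 is filled as deposited alone and Mbd2 changes sign between scalings.

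The paired nuclear receptors differed by probe set. Nr2c2 (TR4) was lower at 2 of 5 tested probe sets. Its main probe set 1454851_at gave 3217, 1950 and 1747 on the knockout-labelled arrays, against 4974, 4563 and 3354 on the wild-type-labelled arrays. The groups did not overlap, but knockout-labelled array 1 was only just below wild-type-labelled array 3 (log2 difference -0.93 ± 0.25, SE, limma adjusted p = 0.0167). The call was lost without knockout-labelled array 2 (adjusted p = 0.0635) or 3 (0.0687), without wild-type-labelled array 1 (0.0536) or 2 (0.0507), by quantile normalization (0.0646) and by cyclic loess (0.0617). At 1451569_at the signals were 83.1, 314 and 349 on the knockout-labelled arrays and 772, 913 and 667 on the wild-type-labelled arrays, 3.72-fold lower (-1.90 ± 0.49, SE, limma adjusted p = 0.0144). Knockout-labelled array 1 was far below the other arrays of its label at this probe set, while at the main probe set it was the highest of them.

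The remaining Nr2c2 probe sets gave no call. At 1425014_at the signals were 273, 386 and 402 on the knockout-labelled arrays and 423, 478 and 438 on the wild-type-labelled arrays, apart but not past the test (-0.35, limma adjusted p = 0.251). At the dim probe sets 1454167_at and 1439696_at the knockout means were 172 and 168 and the wild-type means 101 and 105, with overlapping groups and differences of 0.66 and 0.99. The probe set 1449605_at, under the filter, had a knockout mean of 26.4 and a wild-type mean of 12.2. The mean log2 signal of all 6 Nr2c2 probe sets gave a difference of -0.043 (limma adjusted p = 0.915), in which bright and dim probe sets counted equally.

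Nr2c1 (TR2) did not pass at its main probe set 1418605_at, with 292, 323 and 229 on the knockout-labelled arrays and 358, 355 and 285 on the wild-type-labelled arrays (log2 difference -0.25, 95% interval -0.83 to 0.34, limma adjusted p = 0.45). These groups overlapped as deposited. After quantile normalization (-0.76, adjusted p = 0.0419), cyclic loess (-0.73, 0.0441) and median centring (-1.06, 0.00732) the same probe set passed as lower. At 1439490_at the signals were 89.8, 168 and 211 on the knockout-labelled arrays and 358, 281 and 342 on the wild-type-labelled arrays, 2.21-fold lower (-1.14 ± 0.36, SE, limma adjusted p = 0.0315). Leaving out 1 array in turn ended that call in 5 of 6 fits (adjusted p up to 0.099). The probe sets 1449157_at (172 ± 18.9 with the knockout label and 165 ± 34.2 with the wild-type label, SD, n = 3 each) and 1446194_at (130 ± 88.9 with the knockout label and 132 ± 19.6 with the wild-type label) overlapped and did not pass, and 1458338_x_at averaged 10.6 with the knockout label and 18.4 with the wild-type label, under the filter.

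**Figure D3:**
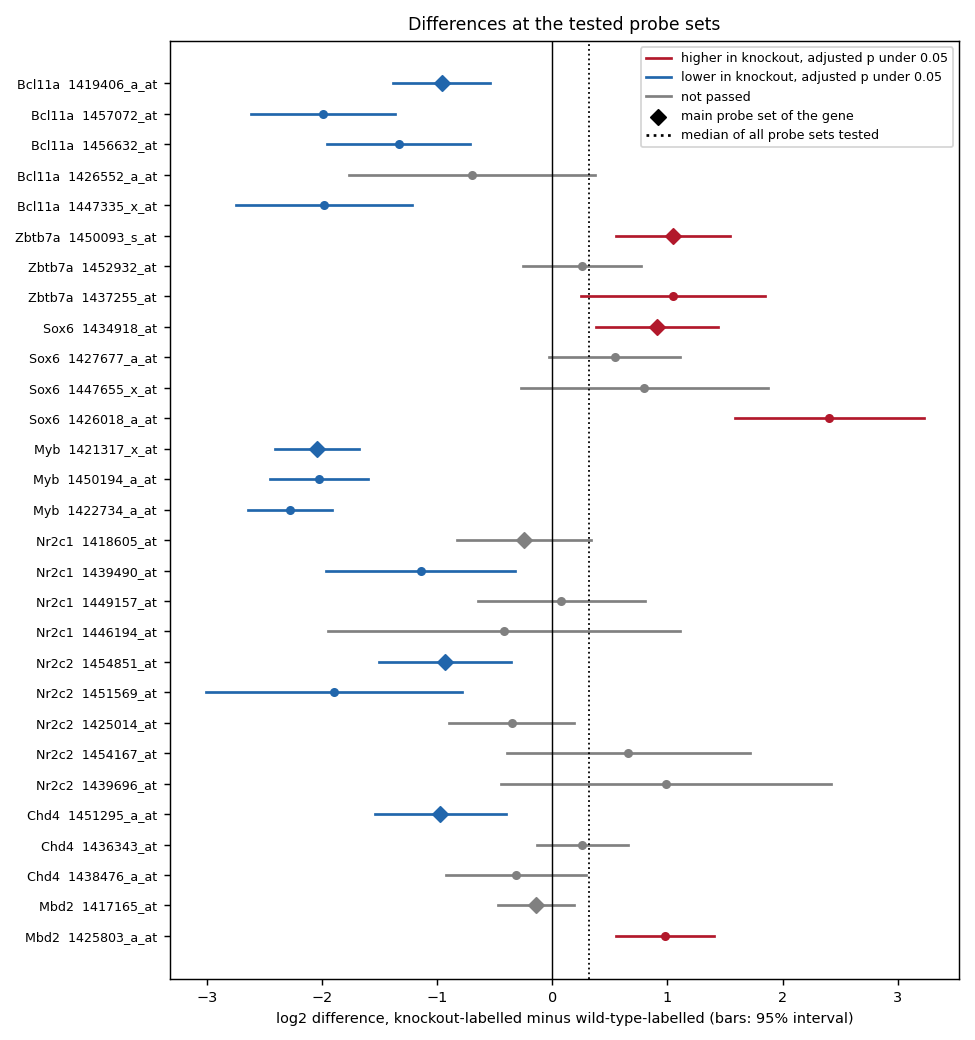
Log2 difference, knockout-labelled minus wild-type-labelled, with its 95% interval from limma, at the 29 tested probe sets of the regulators. Diamonds mark each gene's main probe set, red is higher and blue lower at an adjusted p under 0.05, grey did not pass, and the dotted line is the median of all probe sets tested, 0.32. The 3 Myb intervals lie furthest to the left as a group, and the intervals of the Mbd2 probe sets do not meet.

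Chd4 is the ATPase of the NuRD complex and Mbd2 brings that complex to methylated DNA, and for both genes the probe sets disagreed. The main probe set of Chd4, 1451295_a_at, gave 2349, 1798 and 2485 on the knockout-labelled arrays, against 2899, 4871 and 5603 on the wild-type-labelled arrays. The groups did not overlap, with wild-type-labelled array 1 much closer to the knockout values than its fellows (log2 difference -0.97 ± 0.25, SE, limma adjusted p = 0.0143), and the call was lost without knockout-labelled array 2 (adjusted p = 0.0585). At 1436343_at the order was the reverse, with 954, 1045 and 1009 on the knockout-labelled arrays and 740, 839 and 943 on the wild-type-labelled arrays, not past the test (0.26, 95% interval -0.13 to 0.66, limma adjusted p = 0.246). At 1438476_a_at the signals of 255, 453 and 359 on the knockout-labelled arrays overlapped those of 387, 482 and 429 on the wild-type-labelled arrays (-0.32, limma adjusted p = 0.355). The mean of the 3 probe sets did not pass (-0.34, limma adjusted p = 0.146).

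The brightest Mbd2 probe set, 1417165_at, gave 2135, 2309 and 2193 on the knockout-labelled arrays and 2643, 2264 and 2415 on the wild-type-labelled arrays, overlapping by 1 array (log2 difference -0.14, 95% interval -0.47 to 0.19, limma adjusted p = 0.452). Its other probe set, 1425803_a_at, gave 1582, 2114 and 2120 on the knockout-labelled arrays and 863, 955 and 1124 on the wild-type-labelled arrays, 1.97-fold higher (0.98, 95% interval 0.55 to 1.41, limma adjusted p = 0.00392). The 2 intervals did not meet, and the difference between the probe sets was not itself tested. The higher call was lost after median centring (0.16, adjusted p = 0.664), and the main probe set turned to 0.10 after quantile normalization. With the mean of both probe sets Mbd2 was higher (0.42, limma adjusted p = 0.0436).

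The other subunits of NuRD also moved both ways. Of 12 tested partners 3 were higher, 4 lower and 5 did not pass. Their median log2 difference was -0.27, against 0.14 over all genes at their main probe sets, of which 26.1% were higher and 19.7% lower. Mta3, a subunit known to bind sequence-specific repressors, was higher at 1672, 1675 and 2240 on the knockout-labelled arrays, against 588, 596 and 695 on the wild-type-labelled arrays (1.56, limma adjusted p = 0.000344). The histone deacetylase Hdac1 was lower at 3436, 3005 and 2899 on the knockout-labelled arrays, against 5054, 4690 and 5348 on the wild-type-labelled arrays (-0.69, limma adjusted p = 0.006). Its partner deacetylase Hdac2 (-0.82) and the small subunit Cdk2ap1 (-1.09) were lower too. The paralogues Mta1 (0.54) and Mta2 (-0.60) went opposite ways as deposited, but Mta1 turned to -0.28 after median centring. Mta2 lost its call with quantile normalization (adjusted p = 0.15) and cyclic loess (0.157), as did Hdac2 (0.0619 and 0.0591). Of their other probe sets both of Hdac2 (-0.091 and 0.48) and 1 of Cdk2ap1 (-0.17) did not pass, and 1 of Cdk2ap1 was lower (-0.94). Chd3, the ATPase that can replace Chd4 in the complex, was higher as deposited (0.99, limma adjusted p = 0.0166), but it did not pass with median centring (0.17, adjusted p = 0.659) or quantile normalization (0.05005). Mbd3, which takes the place of Mbd2 in a separate form of NuRD, did not pass (0.20, limma adjusted p = 0.406).

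Among 14 further corepressors tested 7 were lower, 1 was higher and 6 did not pass, with a median difference of -0.43. The shares over all genes at their main probe sets were 19.7% lower and 26.1% higher. The polycomb methyltransferase Ezh2 (-0.71), the maintenance DNA methyltransferase Dnmt1 (-0.56), which TR2 and TR4 recruit, the arginine methyltransferase Prmt5 (-0.79) and the H3K9 methyltransferase Ehmt2 (-0.74) were among the lower genes, with limma adjusted p of 0.0136 to 0.0155 as deposited. With cyclic loess all 4 lost their calls at these probe sets (adjusted p 0.055 to 0.0788), and with quantile normalization Ezh2 (0.0857), Prmt5 (0.0544) and Ehmt2 (0.0584) did. Of the other probe sets, both of Dnmt1 were lower (-1.09 and -1.55) and that of Ehmt2 did not pass (0.34). Kdm1a and Rcor1, the demethylase and scaffold bound by Bcl11a, did not pass (-0.23 and -0.29, limma adjusted p 0.261 and 0.137). Kdm5b, an H3K4 demethylase, was the 1 higher gene (0.80). Its sign turned after median centring (-0.020), and its other probe sets lay between -0.17 and 1.86.

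Of 10 close relatives of the regulators tested 3 were higher, 2 lower and 5 did not pass. All genes at their main probe sets gave 26.1% higher and 19.7% lower. Zbtb7b, the relative of Zbtb7a known from T cells, was lower (-1.09, limma adjusted p = 0.00333), the direction opposite to that of Zbtb7a, although its other probe set was at -0.050. Bcl11b (1.36) and Sox5 (1.29), relatives of Bcl11a and Sox6, were called higher from wild-type means of 81.9 and 65.1. Both means were under 98.6, so both genes were tested only through the knockout-labelled arrays and had to differ. Both calls were lost under the other scalings, where Bcl11b gave 0.49 to 0.55 (adjusted p 0.282 to 0.33) and Sox5 0.39 to 0.48 (0.403 to 0.488). Mbd1, a methyl-CpG binding relative of Mbd2, was lower (-0.96, limma adjusted p = 0.00436), while its other probe sets did not pass (0.075 and -0.39). Mybl2, the cell cycle relative of Myb, did not pass (-0.23, limma adjusted p = 0.336).

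Other modulators of globin switching were split, with 5 of 21 higher, 6 lower and 10 not passed, and a median difference of 0.0033. These counts stand beside 26.1% higher and 19.7% lower over all genes at their main probe sets. Eif2ak1, the haem-regulated kinase HRI, whose loss raises fetal globin in human cells, was higher at its main probe set (2.01, limma adjusted p = 0.000106). Of its other probe sets 2 were called higher too (1.61 and 1.82). Its dimmest tested probe set averaged 368 with the knockout label and 89.0 with the wild-type label. That probe set was tested only through the knockout-labelled arrays, so its values are a description. Nr2f2, the nuclear receptor COUP-TFII that binds embryonic globin promoters, had 505, 595 and 475 on the knockout-labelled arrays, against 85.0, 62.8 and 90.5 on the wild-type-labelled arrays. Nfia, a factor of the fetal to adult programme, had 316, 388 and 272 on the knockout-labelled arrays, against 41.2, 59.0 and 61.7 on the wild-type-labelled arrays. The wild-type values of both were under 98.6, so both were tested only through the knockout-labelled arrays and these values are a description. Both genes are also known in cells outside the blood lineages, the 8 hepatocyte markers were higher with the same label, and the part of such cells was not tested. Ikzf1, a lymphoid and erythroid repressor, was lower at its main probe set (-1.36), while another did not pass (0.25). Yy1 was lower at its main probe set (-1.06) but higher at another (0.77, limma adjusted p = 0.0186), and its remaining probe sets did not pass (-0.42 and -0.15). That higher call was lost under each other scaling tried. Klf3, a CACCC-binding repressor and known target of Klf1 in erythroid cells, was lower at its main probe set (-2.04, limma adjusted p = 0.000609), with 2 further probe sets called lower (-1.57 and -0.69) and 2 not passed (-0.24 and 0.76).

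Igf2bp1 and Igf2bp3, fetal RNA-binding proteins whose human homologues act upstream of BCL11A, were called higher at their main probe sets (1.02 and 0.51, limma adjusted p 0.0457 and 0.0413). The Igf2bp1 groups overlapped, and its call was lost with quantile normalization (adjusted p = 0.0875), cyclic loess (0.06) and median centring (0.649). Igf2bp3 was called lower at 3 other probe sets (-0.63, -0.66 and -1.29), and its main probe set turned to -0.30 after median centring, so no direction can be given for Igf2bp3. Hic2, a repressor of Bcl11a, did not pass at its main probe set (0.30, limma adjusted p = 0.286). A dimmer probe set of it was higher (1.69, limma adjusted p = 0.00512), a call lost with cyclic loess (0.0515) and median centring (0.0708). Zfp410, the activator of Chd4, did not pass (0.013, limma adjusted p = 0.957). Lin28b, the fetal RNA-binding protein, was under the filter at means of 8.88 with the knockout label and 44.9 with the wild-type label.

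Activators and looping factors of the globin loci were higher at 5 of 11 genes and lower at 3, where 26.1% and 19.7% of all genes were. Gata1 (1.89), its cofactor Zfpm1 (1.87) and Tal1 (1.68) were higher (limma adjusted p 9.61e-05 to 0.000646). Their partner Lmo2 (-0.56) and the E protein Tcf3 (-1.07) were lower, as was Lmo4 (-1.08). The call of Lmo2 was lost with quantile normalization (adjusted p = 0.0999) and cyclic loess (0.108), and the other Tcf3 probe sets did not pass (-0.25 and -0.19). The small Maf proteins Mafg (0.73) and Mafk (0.55) were higher as deposited, but turned to -0.087 and -0.27 after median centring, and Mafk also lost its call with quantile normalization (adjusted p = 0.0511). Ldb1, which links the complex across the locus, did not pass (0.46, limma adjusted p = 0.0627). Nfe2, which binds the locus control region, did not pass either (-0.44, limma adjusted p = 0.0827). The 6 related lists, globins included, together held 72 distinct tested genes. Of these 42 (58.3%) were called, where 45.8% of all genes were called at their main probe sets. Among the 42 are Hbb-bh1, Nr2f2, Nfia, Sox5 and Bcl11b, whose wild-type means were under 98.6. These genes had to differ, so their calls support nothing further.

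**Figure D4:**
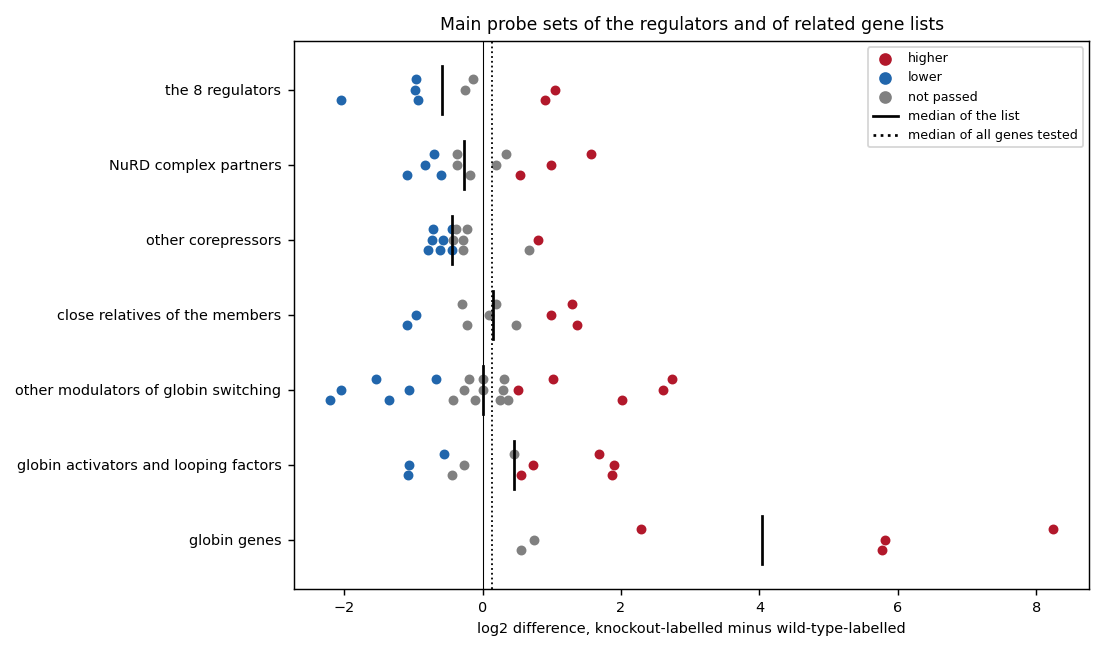
Log2 difference, knockout-labelled minus wild-type-labelled, at the main probe set of each tested gene, for the 8 regulators and for 6 lists of related genes. Red points are higher and blue points lower at an adjusted p under 0.05, grey points did not pass, solid bars are list medians and the dotted line is the median of all genes, 0.14. The corepressor median is -0.43, and the 3 embryonic globins lie at 5.78 to 8.24.

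The genes that these regulators act on are the globins. The embryonic beta-like globin Hbb-y gave 32162, 50972 and 66626 on the knockout-labelled arrays, against 1447, 1330 and 319 on the wild-type-labelled arrays. Hba-x, the embryonic alpha-like globin, gave 4810, 18922 and 5228 on the knockout-labelled arrays and 149, 172 and 113 on the wild-type-labelled arrays. Hbb-bh1, the other embryonic beta-like globin, gave 6562, 10451 and 4207 on the knockout-labelled arrays and 13.3, 31.6 and 24.7 on the wild-type-labelled arrays. All 3 were apart by more than an order of magnitude (log2 differences 5.81, 5.78 and 8.24). Among the knockout-labelled arrays Hbb-y was highest on array 3 and the other two on array 2. Of 6 globin genes tested 4 were higher, where 26.1% of all genes were higher at their main probe sets. Hbb-bh1 is among the 4, but its wild-type values were all under 98.6. It was tested only through the knockout-labelled arrays and had to differ, so its values are a description. Adult Hbb-b2 was 4.91-fold higher at its main probe set, whose probes can bind the near-identical adult beta-globin transcript. Its other probe set was 1.54-fold higher (0.62, limma adjusted p = 0.0445). That call was lost with quantile normalization (adjusted p = 0.391), cyclic loess (0.34) and median centring, where the sign turned (-0.19). Hba-a1 (0.75) and Hba-a2 (0.56) did not pass (limma adjusted p 0.121 and 0.184). Both were dim, with means of 156 and 263 on the knockout-labelled arrays and 94.3 and 175 on the wild-type-labelled arrays. Probe sets shared between genes were left out, and Hbb-b1, Hbb-bs and Hbb-bt had none assigned to them alone. No direction is given for adult alpha globin.

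The promoters of Hbb-y and Hba-x are shown because BCL11A is known to bind TGACCA in the human fetal globin promoters. Capitals mark TGACCA on either strand. In the Hbb-y window (RefSeq, GRCm38.p6, chr7:103853158-103853457, minus strand) there was 1 match, beginning 86 bases before the start.
Hbb-y: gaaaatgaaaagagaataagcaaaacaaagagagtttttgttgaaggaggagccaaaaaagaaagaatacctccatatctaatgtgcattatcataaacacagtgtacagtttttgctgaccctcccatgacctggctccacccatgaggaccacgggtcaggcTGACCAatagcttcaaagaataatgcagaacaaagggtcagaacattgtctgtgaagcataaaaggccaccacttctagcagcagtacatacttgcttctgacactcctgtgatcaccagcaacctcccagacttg
In the Hba-x window (GRCm38.p6, chr11:32276350-32276649, plus strand) there was 1 match, beginning 40 bases before the start.
Hba-x: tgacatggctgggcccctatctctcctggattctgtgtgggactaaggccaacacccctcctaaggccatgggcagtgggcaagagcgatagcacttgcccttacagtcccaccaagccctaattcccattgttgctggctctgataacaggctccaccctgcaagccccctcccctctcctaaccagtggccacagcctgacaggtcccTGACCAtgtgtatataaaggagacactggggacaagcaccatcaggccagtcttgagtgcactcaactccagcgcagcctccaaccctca
TGACCA was present in 13.57% of all 32851 windows and in none of the windows of the member genes. It shared no base with a match to CCNCNCCC, of which Hba-x held 1 and Hbb-y 0. Both windows also hold CTCCACCC, a CACCC sequence that this pattern does not match.

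The genes whose signal over the 6 arrays was most like that of each regulator are given as a description, by Pearson's r of log2 signals over 6 arrays that share the label grouping, among 12102 other genes. For Bcl11a they were Cdk2, Rtca and Elp6 (r = 0.995 to 0.996). For Myb they were Dtx3l, Slc25a24 and Msl3 (0.998 to 0.999), and for Nr2c2 Med4, Bank1 and Zcchc2 (0.998 to 1.00). For Zbtb7a they were Slc25a29, Vangl1 and Endov (0.995 to 0.998), and for Sox6 Fndc3c1, Kif21a and Cacng4 (0.997 to 0.999). For Nr2c1 they were Cplane2, Zbtb40 and Sp4 (0.984 to 0.987), for Chd4 Ppp1r15b, Osbp and Cfl1 (0.982 to 0.984), and for Mbd2 Ier3ip1, St6galnac4 and Gmds (0.964 to 0.992). The 6 arrays form 2 labelled groups, so any gene that differed strongly between the labels has a high r with another that did.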

How the data were processed

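The deposited table holds 1 intensity value per probe set and array on a linear scale, which the authors made with the MAS5 method. The submitters' processing notes name Affymetrix Expression Console for it, without a version. This method subtracts background and scales each array to 1 trimmed mean, so a dim group can move with the scaling. Detection calls were not used here. Symbols came from the platform annotation, and Entrez identifiers gave the current RefSeq symbol for 34741 of 34945 probe sets with a single gene. Signals under 1 were set to 1, log2 was taken, 64 control probe sets were left out, and probe sets at or above the 40th percentile of mean log2 signal were tested with limma 3.58.1 in R 4.3.3 (lmFit, eBayes with a trend, two-sided). The test was tried on simulated data. Named genes were all members, Klf1, the globins, the called genes of smallest p in each related list and the most similar genes by r; further list genes were named after their values were seen. The members and lists were chosen with earlier results of these data known. Figures used matplotlib 3.10.9.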

Additional observations from a re-analysis of the deposited data

How the results depend on the processing

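Over 20 alternatives (3 scalings, 2 offsets, 2 filters, 3 variance models, 2 ways to join probe sets, replicate number as block, 6 fits that left out 1 array and a threshold of 0.01) the main probe sets of Bcl11a and Myb stayed lower and called. Those of the other members moved. Quantile normalization gave Sox6 0.52, Nr2c2 -0.71 and Nr2c1 -0.76, so the first 2 lost their calls and Nr2c1 passed. Cyclic loess did the same (0.55, -0.70 and -0.73). Median centring lowered all values: Sox6 (0.094) and Zbtb7a (0.23) lost their calls, and Nr2c1 (-1.06), Mbd2 (-0.95) and Klf1 (-1.20) passed. The probe sets of the regulators called higher were 3 after quantile normalization, cyclic loess or a filter at the 60th percentile and 1 after median centring, which was Sox6 1426018_a_at. That probe set and Bcl11a 1447335_x_at were tested only through 1 label. They were called wherever they were tested, so the counts of regulator probe sets given here include them and these calls support nothing further. Averaging the probe sets per gene, Chd4 (-0.34) and Nr2c2 (-0.043) lost their calls and Mbd2 turned to 0.42. Leaving out 1 array gave -1.25 to -0.78 for Chd4, -1.20 to -0.76 for Nr2c2 and 0.81 to 1.04 for Sox6, which lost its call without wild-type-labelled array 1, 3 to 5 probe sets called higher, and 27 to 37 genes called in the related lists, where the count was 42 with all arrays and 27 without knockout-labelled array 2. At a threshold of 0.01, 6147 probe sets passed (11838 at 0.05), with 21 related genes, 10 probe sets of the regulators (3 higher, 7 lower) and 3 of 8 main probe sets. Those of Chd4 (-0.97), Nr2c2 (-0.93) and Sox6 (0.91) did not pass it. Of all calls 64.16% were higher as deposited, 46.8% with quantile normalization, 47.83% with cyclic loess and 16.98% with median centring. The fits that joined probe sets gave no count of probe sets. Without a filter 13876 probe sets were called. Same-numbered arrays of the groups had correlated deviations of 0.0423, 0.0541 and 0.0763, so the numbers were not taken as pairs, although each array correlated best with its own number, a hint from the data and not from the design. With the replicate block 11829 probe sets were called, and among the regulators the call of Zbtb7a 1437255_at was lost (adjusted p = 0.0618). Signals near 98.6 limit every fold given against them.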
